A study of Mus musculus with 8 samples.

Results

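The Krüppel-like factors followed here were 8 genes, *Klf2*, *Klf3*, *Klf4*, *Klf6*, *Klf7*, *Klf9*, *Klf10* and *Klf13*, of the 18193 genes that the annotation of the array names alone on at least 1 probe set. The members were found as every probe set annotated to exactly 1 of these symbols, which gave 30 of the 45037 probe sets tested. Main probe sets were chosen by signal: for each gene the one with the highest mean log2 signal over all arrays was taken, so the levels themselves are a description and were not tested. The gene names were listed with earlier results of these same arrays known, *Klf4* being singled out by name, so the adjusted p of its treatment difference is the output of the fit over all probe sets and not independent support. The study treated immature bone marrow-derived dendritic cells (BMDCs) with 75 µg/mL [BF/S+L/Ep], the butanol fraction of an extract of stem and leaf of *Echinacea purpurea*, or with the 0.1% DMSO vehicle, for 4 h or 12 h. Each treatment and time was measured on 2 Affymetrix Mouse 430 2.0 arrays, 8 arrays in 4 groups. The cells came from female BALB/c mice, 6 weeks old, and were the non-adherent cells of marrow grown for 9 days in GM-CSF, at 200 U/mL by the sample labels and 1000 U/mL by the methods. All 4 groups shared that culture and 0.1% DMSO, and no group was left without vehicle or was matured with LPS. The replicates are called biological in the source, but the sources used here do not say how mice and cultures were divided over arrays, so p-values measure the spread between these arrays.

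Krüppel-like factors are transcription factors with zinc fingers at their carboxyl end that bind GC boxes and CACCC elements, the same sequences that Sp proteins bind. They differ in the rest of the protein: *Klf2*, *Klf4*, *Klf6* and *Klf7* act mainly as activators, *Klf3* recruits the CtBP corepressors, and *Klf9*, *Klf10* and *Klf13* bind the corepressor Sin3a. In myeloid cells *Klf4* is known for its place in monocyte and dendritic cell development, and *Klf2* for holding leukocytes quiescent.

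The trimmed mean signal was 497 on every array. The deposited signals had been scaled to a common level, so this value is no measure of quality. The log2 signals of the arrays of a group correlated at 0.904 to 0.911 over all probe sets, and 48.8% to 54.9% of probe sets lay above the background reference of the array. The reference is a dim level set by chemosensory receptor genes, which these cells are not known to use: the 95th percentile of the 83 probe sets that the annotation gives them. It lay between 82.0 and 107 on the 4 DMSO arrays and between 66.7 and 76.1 on the 4 [BF/S+L/Ep] arrays. Of 9 dendritic cell markers, 8 lay above the reference on all 8 arrays, among them *Itgax*, *H2-Ab1*, *Cd74* and *Zbtb46*, while *Flt3* did so on 6. The 5 macrophage markers measured, with *Csf1r* and *Adgre1*, were also above it on all 8 arrays, and none of the erythroid, B cell or T and NK cell markers was. In such a bulk sample, fewer cells of a type and less RNA per cell cannot be told apart.

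All 8 main probe sets lay above the reference on all 8 arrays, as did 26 of the 30 probe sets. The weakest of the others, 1 each for *Klf3*, *Klf9* and *Klf13*, were under it on every array, and a further *Klf9* probe set was above it on 7. The promoters of 4 of the 5 members called with time are shown here, with elements that these factors and their regulators bind marked in them. Each is the 250 bases before a start of transcription from RefSeq (GRCm38.p6), written 5′ to 3′ on the strand of the gene. The *Klf7* window lies inside the annotated gene, chr1:64029448-64122345, so the start used for it is not the outermost one. Capitals mark matches on either strand to the GC box, with the letters GGGCGG. They also mark the shorter element named for its letters, CACCC, the MEF2 consensus, and the AP-1 site, written TGANTCA where N is any base.
*Klf4*, chr4:55532476-55532725, minus strand: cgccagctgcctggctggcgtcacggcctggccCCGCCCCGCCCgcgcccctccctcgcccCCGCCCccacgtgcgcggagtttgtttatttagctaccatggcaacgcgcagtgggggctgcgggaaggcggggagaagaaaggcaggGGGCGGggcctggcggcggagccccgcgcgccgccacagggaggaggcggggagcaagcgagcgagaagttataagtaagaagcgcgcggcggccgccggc
*Klf2*, chr8:72318812-72319061, plus strand: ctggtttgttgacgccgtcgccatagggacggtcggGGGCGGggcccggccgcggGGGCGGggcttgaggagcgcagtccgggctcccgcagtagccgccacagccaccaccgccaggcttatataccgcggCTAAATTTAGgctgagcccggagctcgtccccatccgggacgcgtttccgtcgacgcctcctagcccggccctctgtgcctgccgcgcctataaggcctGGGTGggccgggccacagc
*Klf9*, chr19:23140976-23141225, plus strand: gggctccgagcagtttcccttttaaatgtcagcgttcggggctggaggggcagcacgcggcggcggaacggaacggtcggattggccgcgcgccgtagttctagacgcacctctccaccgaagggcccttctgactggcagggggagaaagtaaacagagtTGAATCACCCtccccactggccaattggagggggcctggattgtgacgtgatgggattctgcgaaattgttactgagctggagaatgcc
*Klf7*, chr1:64121390-64121639, minus strand: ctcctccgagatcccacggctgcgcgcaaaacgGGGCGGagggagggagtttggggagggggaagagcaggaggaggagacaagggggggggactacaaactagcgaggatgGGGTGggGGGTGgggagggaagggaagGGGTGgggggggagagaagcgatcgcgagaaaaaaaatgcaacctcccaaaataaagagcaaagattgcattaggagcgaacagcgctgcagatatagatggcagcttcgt
The *Klf4* window held 4 GC boxes and no CACCC element, and 74.0% of its bases were G or C against a median of 52.4% over the 32841 promoters of the table. The *Klf2* window held 2 GC boxes, 1 CACCC element and, with its first base 118 bases before the start, 1 match to the MEF2 consensus, the element through which the kinase ERK5 is known to act on this gene. The *Klf9* window held no GC box. Its single CACCC element overlapped an AP-1 site, so both are inside 1 stretch of capitals. The *Klf7* window held 1 GC box and 3 CACCC elements. Over all 32841 promoters, 32.7% held a GC box, 52.0% a CACCC element, 2.92% the MEF2 consensus and 6.75% an AP-1 site. The windows of *Klf3* (6 GC boxes, 5 CACCC elements), *Klf6* (1 GC box) and *Klf13* (3 GC boxes, 1 CACCC element) are not printed, and *Klf10* was not in the table. A CArG box (1.47% of promoters), a cAMP response element (TGACGTCA, 1.55%) and a glucocorticoid response element (0.387%) were searched too, with no match in any of the 7 windows. A match is a run of letters and not a shown binding site.

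**Figure D1:**
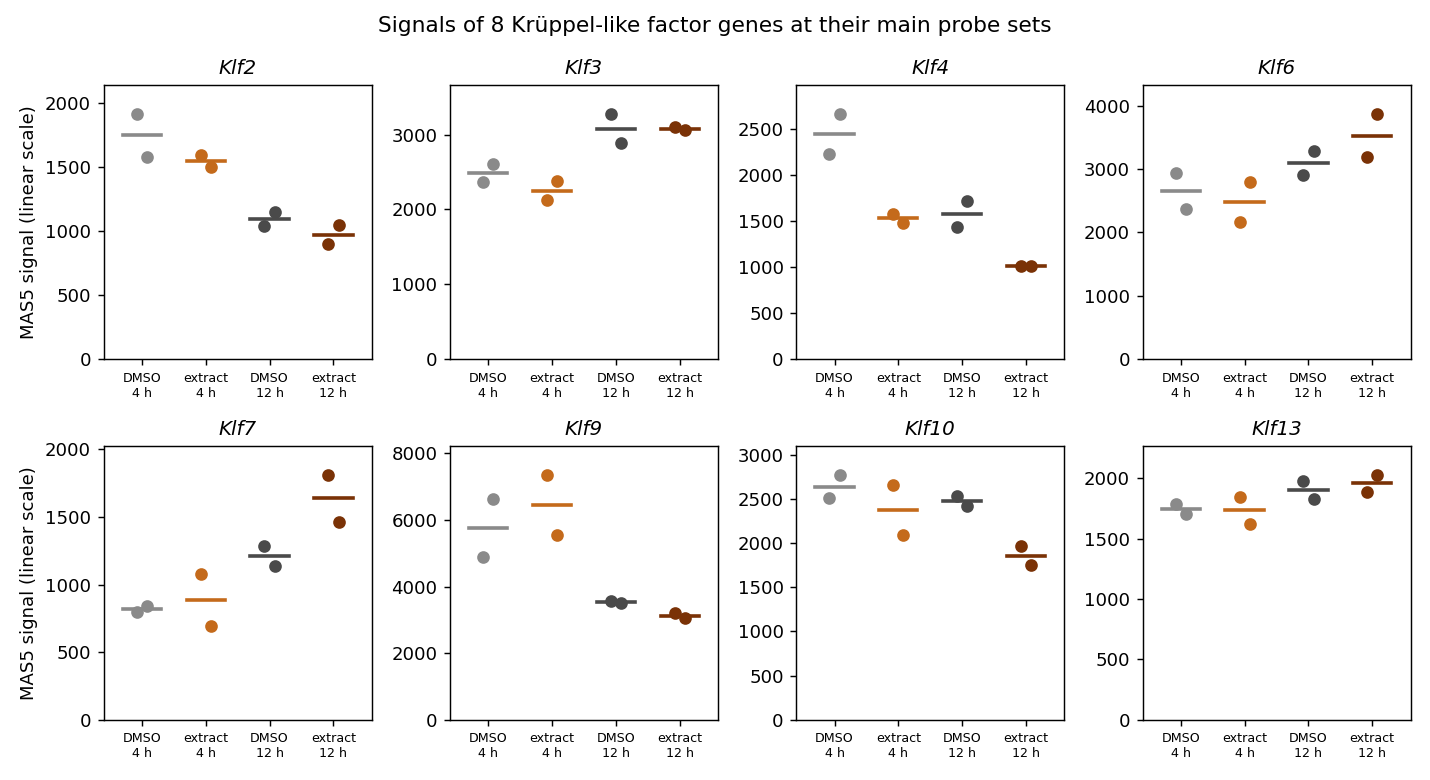
MAS5 signal (linear scale, from 0) of the main probe set of each of the 8 Krüppel-like factors. Points are arrays, 2 for each treatment and time, and bars are their means. *Klf4* was lower on both [BF/S+L/Ep] arrays than on both DMSO arrays of the same time, and *Klf2*, *Klf4* and *Klf9* were lower at 12 h than at 4 h. Axes differ between panels, and heights are not comparable between genes.

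The first question was whether [BF/S+L/Ep] changed these factors relative to its vehicle. *Klf4* was the 1 member called: averaged over both times it fell 1.57-fold, and the differences at 4 h and 12 h were nearly the same size. The other 7 members, its close relative *Klf2* among them, did not pass the test at either time or on average.

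*Klf4* (probe set 1417394_at, gene at chr4:55527137-55532475) gave signals of 2237 and 2665 on the DMSO arrays at 4 h. The [BF/S+L/Ep] arrays at 4 h gave 1582 and 1482. At 12 h the signals were 1439 and 1717 with DMSO and 1012 and 1011 with [BF/S+L/Ep]. Both treated arrays were lower than both control arrays at each time, and the treated arrays at 4 h lay among the DMSO arrays of 12 h. The group means were 2451 ± 303 and 1532 ± 70.5 at 4 h (SD, n = 2 each), and 1578 ± 196 and 1011 ± 0.919 at 12 h. In log2 units, [BF/S+L/Ep] minus DMSO was -0.67 (SE 0.13) at 4 h, adjusted p = 0.297. At 12 h it was -0.64 (SE 0.13), adjusted p = 0.215. Neither passed the threshold of 0.05. The average of both differences was -0.65 (SE 0.09, 95% interval -0.85 to -0.46), adjusted p = 0.0133, and the 12 h difference minus the 4 h difference was 0.04 (SE 0.18, 95% interval -0.36 to 0.43).

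Over all 45037 probe sets few were called for treatment: 0.00444% at 4 h, 0.02% at 12 h (0.0155% higher) and 0.107% on average (0.0888% higher and 0.0178% lower). Of the members, 0 of 8 were called at 4 h and at 12 h and 1 of 8 on average. At an unadjusted p under 0.05, 1 member and 2238 probe sets passed at 4 h, and 3 members and 2684 probe sets at 12 h. On average 2 members, *Klf4* and *Klf10*, and 3189 probe sets passed at that level. Treated arrays below all DMSO arrays of their time, as for *Klf4*, were found for 17.6% of all probe sets at 4 h and for 4.29% at both times (3.34% lay above at both). The background reference was also lower on the [BF/S+L/Ep] arrays, while the lowest *Klf4* signal was 1011. The summed macrophage markers (5 of 6 measured, all above the reference on every array) were lower too, at 49031 to 49670 with DMSO and 44205 to 47642 with [BF/S+L/Ep] at 4 h, and at 50315 to 50643 and 47032 to 50067 at 12 h. *Csf1r* made up most of that sum, and the markers did not go together: on the treated arrays *Mertk* was lower without overlap at both times, *Adgre1* was higher without overlap at both times, and *Cd68* and *Fcgr1* overlapped with DMSO at both times. Markers of other cells went lower too: *Zbtb46* of the dendritic cell list and *Siglecf* of the mast cell and eosinophil list. Both were lower on the treated arrays without overlap at both times. *Zbtb46* gave 643 and 621 with DMSO against 537 and 544 at 4 h. Of the other markers outside the macrophage list that lay above the reference on all arrays, none was higher or lower without overlap at both times. The part of the reference and of these markers in the result was not tested. The call for *Klf4* was lost without 6 of the 8 arrays, left out singly. At 4 h these were both DMSO arrays, the first (adjusted p = 0.0586) and the second (0.157), and the second treated array (0.0754). At 12 h they were the second DMSO array (0.0915) and both treated arrays, the first (0.0755) and the second (0.0908). It was also lost with each array centred on its median (0.136) and without the intensity trend (0.515). The log2 difference stayed between -0.72 and -0.59 under every alternative tried on this probe set. The second *Klf4* probe set, 1417395_at, gave -0.29 (SE 0.17, adjusted p = 0.766) on average, with signals of 808 and 677 against 455 and 724 at 4 h and of 545 and 417 against 482 and 352 at 12 h. Its arrays overlapped between treatments at both times, so the call rests on the brighter probe set.

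**Figure D2:**
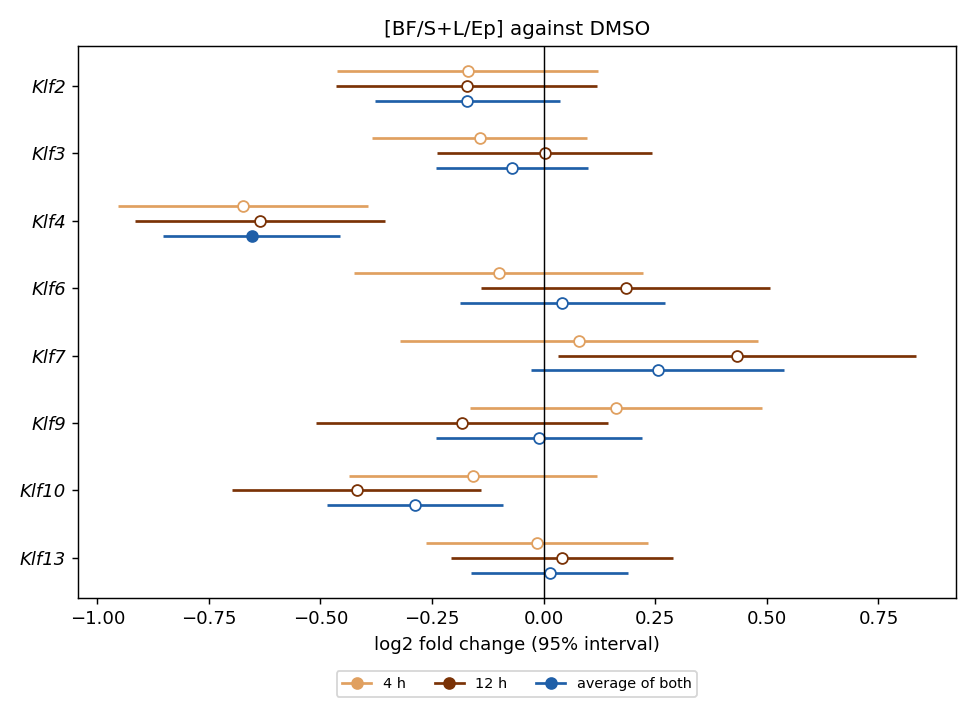
Log2 difference of [BF/S+L/Ep] minus DMSO for the main probe set of each factor at 4 h, at 12 h and averaged over both times. Lines are 95% intervals, not adjusted for the number of probe sets, and filled points have an adjusted p under 0.05. The only filled point is the average of *Klf4*, at -0.65.

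*Klf2* (1448890_at), which keeps T cells and endothelium quiescent, differed by -0.17 (SE 0.14) at both times and by -0.17 (SE 0.10, 95% interval -0.38 to 0.04) on average, adjusted p = 0.760. Its treated arrays overlapped the DMSO arrays at both times. *Klf10* (1416029_at), an early gene of TGF-β signalling, gave 2532 and 2422 with DMSO and 1960.5 and 1750.0 with [BF/S+L/Ep] at 12 h. These arrays did not overlap, and the difference of -0.42 (SE 0.13) did not pass (adjusted p = 0.613). *Klf7* (1449439_at), best known in neurons, gave 1283 and 1135 with DMSO and 1811 and 1465 with [BF/S+L/Ep] at 12 h, a difference of 0.43 (SE 0.19), adjusted p = 0.812. *Klf9* (1428288_at), like *Klf4*, was not called at 12 h although its arrays did not overlap, at 3577 and 3519.7 against 3208 and 3046. Groups without overlap at 12 h were common among all probe sets, 15.1% higher and 19.7% lower, against which the counts of 1 member higher and 3 lower of 8 are to be read. On average *Klf10* differed by -0.29 (SE 0.09, adjusted p = 0.497). Its unadjusted 95% interval, -0.49 to -0.09, lay below 0, and it was not called. *Klf3*, *Klf6* and *Klf13* had average differences of -0.07, 0.04 and 0.01, with intervals that held 0. Among the further probe sets above the reference on all arrays, 3 had an average difference whose unadjusted 95% interval lay above 0, and none of them was called. For *Klf6*, 1427742_a_at gave 0.48 (SE 0.17, 95% interval 0.10 to 0.85, adjusted p = 0.594) on average and 0.67 (SE 0.24, adjusted p = 0.737) at 12 h, where its signals were 1023 and 945 with DMSO and 1463 and 1677 with [BF/S+L/Ep]. For *Klf7*, 1419354_at gave 0.23 (95% interval 0.01 to 0.44, adjusted p = 0.688) and 1419356_at gave 0.30 (95% interval 0.01 to 0.58, adjusted p = 0.694), beside 0.26 (95% interval -0.03 to 0.54) for the main probe set. The *Klf9* probe set above the reference on 7 arrays, 1436952_at, gave 0.72 (95% interval 0.17 to 1.28, adjusted p = 0.572). The median over the 8 members was -0.12 at 4 h and -0.08 at 12 h, against -0.02 and -0.03 over all probe sets. No member was called for a change of its treatment difference between 4 h and 12 h, and neither was any of the 45037 probe sets (0%), so the test does not show that the differences were alike. The widest values were -0.34 (95% interval -0.81 to 0.12) for *Klf9* and 0.35 (95% interval -0.21 to 0.92) for *Klf7*. At an unadjusted p under 0.05, 0 members and 1647 probe sets passed it.

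The second question was how the factors differed between 12 h and 4 h within a treatment. *Klf2*, *Klf4* and *Klf9* fell in DMSO and fell in [BF/S+L/Ep], by 1.51-fold to 2.04-fold. *Klf7* and *Klf3* rose in [BF/S+L/Ep], by 1.88-fold and 1.37-fold, and *Klf6*, *Klf10* and *Klf13* were called in neither. Thus 3 of 8 members were called lower and 0 higher in DMSO, where 2.1% of all probe sets were called, 0.921% lower and 1.18% higher. In [BF/S+L/Ep] 3 were called lower and 2 higher, against 2.86% called, 1.31% lower and 1.55% higher. Among the 19021 probe sets above the reference on all 8 arrays, as the main probe sets of the members were, 4.68% were called in either direction in DMSO and 6.35% in [BF/S+L/Ep]. The 2 time comparisons share no array, but they share the estimate of the spread. By overlap alone, 3 members were higher on all arrays of 12 h and 3 lower in DMSO (22.5% and 19.1% of all probe sets), and 4 were higher and 4 lower in [BF/S+L/Ep] (22% and 20.1%). *Klf3*, *Klf7* and *Klf13* were higher and *Klf2*, *Klf4* and *Klf9* lower in both treatments, which held for 9.18% and 8.09% of all probe sets. Without the intensity trend no member passed in either treatment, with adjusted p from 0.288 to 0.498 for *Klf2*, *Klf3*, *Klf4*, *Klf7* and *Klf9*. Centring each array on its median ended the calls of *Klf2* (0.0527) and *Klf4* (0.0600) in DMSO and of *Klf4* (0.0749) and *Klf3* (0.218) in [BF/S+L/Ep].

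*Klf9*, which glucocorticoids and thyroid hormone are known to induce, had the widest fall, in [BF/S+L/Ep]. Its main probe set gave 4899.5 and 6628 on the DMSO arrays at 4 h and 3577 and 3519.7 at 12 h. With [BF/S+L/Ep] it gave 7347 and 5534 at 4 h and 3208 and 3046 at 12 h. Every array at 12 h was lower than every array at 4 h. The difference on the log2 scale was -0.68 (SE 0.15, adjusted p = 0.0341) in DMSO and -1.03 (SE 0.15, adjusted p = 0.00219) in [BF/S+L/Ep]. The fall in [BF/S+L/Ep] was called without each of the 8 arrays in turn. In DMSO the call was lost without the second DMSO array of 4 h (0.369), the first (0.189) or second (0.195) DMSO array of 12 h, and the first (0.0571) or second (0.0566) treated array of 12 h, and with 50 added to the signals (0.0547).

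*Klf4* fell by 0.64 on the log2 scale in DMSO (SE 0.13, adjusted p = 0.0220) and by 0.60 in [BF/S+L/Ep] (SE 0.13, adjusted p = 0.0254). Its arrays of 12 h were below those of 4 h in both treatments, so the 4 groups ran from DMSO at 4 h as the highest to [BF/S+L/Ep] at 12 h as the lowest. The middle groups, [BF/S+L/Ep] at 4 h and DMSO at 12 h, overlapped. The call in DMSO was lost without any 1 of the 4 DMSO arrays, the first (adjusted p = 0.0577) or second (0.273) of 4 h and the first (0.211) or second (0.0512) of 12 h. The call in [BF/S+L/Ep] was lost without any 1 of the 4 treated arrays, the first (0.153) or second (0.0638) of 4 h and the first (0.149) or second (0.122) of 12 h, and with those 4 arrays alone (0.0556).

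*Klf2* gave 1909 and 1578 on the DMSO arrays at 4 h and 1037 and 1144 at 12 h. With [BF/S+L/Ep] it gave 1589.6 and 1497 at 4 h and 897 and 1042 at 12 h. All 4 arrays of 12 h were below all 4 of 4 h. The difference was -0.67 (SE 0.14) in both treatments, with adjusted p = 0.0205 in DMSO and 0.0168 in [BF/S+L/Ep]. The DMSO call was lost without any 1 of the 4 DMSO arrays, the first (0.215) or second (0.0581) of 4 h and the first (0.174) or second (0.0832) of 12 h. The call in treated cells was lost without the first (0.118) or second (0.0520) treated array of 4 h or the first of 12 h (0.175).

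*Klf7* gave 797 and 843 with DMSO at 4 h and 1283 and 1135 at 12 h. With [BF/S+L/Ep] the signals were 1078 and 696 at 4 h, the widest gap between arrays of a group for this gene, and 1811 and 1465 at 12 h. All arrays of 12 h were above all arrays of 4 h. The difference was 0.56 (SE 0.19, adjusted p = 0.190) in DMSO and 0.91 (SE 0.19, adjusted p = 0.0180) in [BF/S+L/Ep]. The second was lost without the second treated array of 4 h (0.107) or the first of 12 h (0.197), and with the 4 treated arrays alone (0.0713). Over the alternatives on this probe set the difference ran from 0.60, without the second treated array of 4 h, to 1.23, without the first. The difference between the time changes in the 2 treatments is the same contrast as the change of the treatment effect, 0.35 (SE 0.26) for *Klf7* and -0.34 (SE 0.21) for *Klf9*, neither called.

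*Klf3* (1454666_at), a repressor that restrains gene programs in B cells, gave 2372 and 2601 with DMSO at 4 h and 3270.3 and 2889 at 12 h. With [BF/S+L/Ep] it gave 2127 and 2377 at 4 h and 3097 and 3059 at 12 h. The arrays of both times did not overlap in either treatment. The difference was 0.31 (SE 0.11, adjusted p = 0.245) in DMSO and 0.45 (SE 0.11, adjusted p = 0.0489) in [BF/S+L/Ep]. This last call sat at the threshold: it was lost without each of the 8 arrays in turn, with adjusted p from 0.0576 to 0.247, with the replicate block (0.0562), with 50 added to the signals (0.0529), with robust moderation (0.0643) and with the 4 treated arrays alone (0.114). It held in 2 of 16 alternatives, while the difference stayed between 0.37 and 0.53.

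*Klf6* (1433508_at), a gene induced by tissue injury that activates inflammatory genes in macrophages, gave 2929.7 and 2373 with DMSO at 4 h, 2165 and 2794 with [BF/S+L/Ep] at 4 h, 2905 and 3289 with DMSO at 12 h, and 3190.5 and 3864 with [BF/S+L/Ep] at 12 h. The times overlapped in DMSO and did not in [BF/S+L/Ep], where the difference was 0.51 (SE 0.15, adjusted p = 0.102). *Klf10* differed by -0.09 in DMSO (adjusted p = 0.875) and by -0.35 in [BF/S+L/Ep] (SE 0.13, adjusted p = 0.217). *Klf13* (1432543_a_at), which was described for binding the *Ccl5* promoter in T cells, was the most even member. Its lowest signal was 1619 and its highest 2027, and its time differences were 0.12 (95% interval -0.13 to 0.37) and 0.18 (95% interval -0.07 to 0.43). The median over the members was 0.02 in DMSO and -0.09 in [BF/S+L/Ep], against 0.03 and 0.02 over all probe sets, as rises and falls stood side by side.

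Summed signals of some other cell markers moved with time as well. The platelet markers (3 of 4 measured, 2 above the reference on all arrays) summed to 11991 to 13938 with DMSO at 4 h, 12617 to 16768 with [BF/S+L/Ep] at 4 h, 17055 to 18411 with DMSO at 12 h and 21665 to 22935 with [BF/S+L/Ep] at 12 h. Nearly all of this was *Pf4*, a chemokine of platelets that macrophages also make. *Gp9* was above the reference on only 2 arrays. The mast cell and eosinophil markers (6 of 6 measured, *Kit* and *Siglecf* above on all arrays, *Ms4a2*, *Prg2* and *Epx* on none) summed to 3430.5 to 3578 and 2985 to 3122 at 4 h, with DMSO and [BF/S+L/Ep], and to 2270.2 to 2648 and 2203 to 2275 at 12 h. Most of this sum was *Siglecf*, which was lower at 12 h without overlap in both treatments. *Kit* was higher at 12 h without overlap, with 247 and 274 against 325 and 333.5 in DMSO. In [BF/S+L/Ep] *Kit* gave 262 and 277.5 at 4 h and 366 and 389 at 12 h. The neutrophil markers (7 of 8 measured, *S100a8*, *S100a9* and *Ngp* above on all arrays, *Elane* on none) summed to 3381 to 3620.3 and 3233 to 4146 at 4 h, with DMSO and [BF/S+L/Ep], and to 3236 to 3248 and 2770.3 to 3065 at 12 h. The neutrophil sum and the mast cell and eosinophil sum were lower at 12 h without overlap in both treatments, as *Klf2*, *Klf4* and *Klf9* were. The single neutrophil markers did not all do so. *S100a8*, which made up most of that sum, overlapped between the times in [BF/S+L/Ep], and *S100a9* and *Ngp* overlapped in DMSO. The dendritic cell markers, most of whose sum came from MHC class II genes and *Cd74*, summed to 165921 to 179769 over all arrays, with overlapping ranges between the times. Single markers of that list did move without overlap in both treatments: *Itgax* was lower at 12 h, and *Zbtb46* and *Ccr7* were higher. Of the macrophage markers, *Adgre1* and *Mertk* were higher and *Fcgr1* lower at 12 h without overlap in both treatments. *Csf1r* and *Cd68* overlapped between the times. The macrophage sum was higher at 12 h without overlap in DMSO and overlapped in [BF/S+L/Ep]. *Adgre1* gave 1144 and 897 at 4 h and 2061 and 2483 at 12 h in DMSO. The part of these cells in the time differences of the members was not tested.

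**Figure D3:**
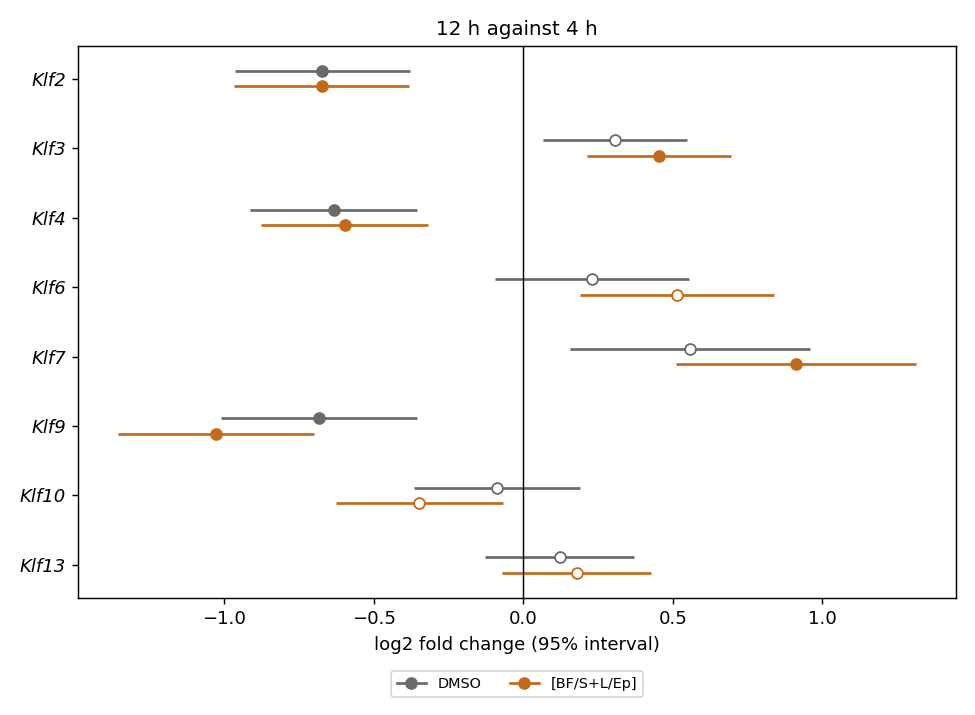
Log2 difference of 12 h minus 4 h for the main probe set of each factor, in DMSO and in [BF/S+L/Ep]. Lines are 95% intervals, not adjusted for the number of probe sets, and filled points have an adjusted p under 0.05. *Klf2*, *Klf4* and *Klf9* are filled below 0 in both treatments, *Klf7* and *Klf3* above 0 in [BF/S+L/Ep]; the difference between the treatments was not called for any of them.

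Where a gene had more probe sets, they can be set beside the main one, as measurements of the same RNA samples and not as replicates. *Klf9* had 7, and its 3 brightest were called lower with time in both treatments: 1456341_a_at by -0.90 (adjusted p = 0.00106) in DMSO and -1.01 (3.71e-04) in [BF/S+L/Ep], and 1428289_at by -0.91 (8.77e-04) and -0.98 (3.99e-04). The arrays of 1428289_at lay between 3354 and 3864 at 4 h and between 1714 and 2004 at 12 h, a tighter spread than that of the main probe set. Probe set 1436763_a_at gave -1.07 (0.0715) and -1.43 (0.0130). The *Klf9* probe sets 1422264_s_at and 1436952_at were not called, at -0.59 and -0.44 in DMSO and -0.69 and -0.77 in [BF/S+L/Ep].

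*Klf7* had 4 probe sets, all higher at 12 h in value. Probe set 1419354_at was called in both treatments, 0.59 in DMSO (adjusted p = 0.0455) and 0.65 in [BF/S+L/Ep] (0.0230), the first being the only call of a rise for a member in DMSO. Its signals were 712 and 645 at 4 h and 1008 and 1034 at 12 h in DMSO, and 709.5 and 851 against 1238 and 1197 in [BF/S+L/Ep]. Both sets of arrays were apart. Probe set 1419356_at gave 0.42 (0.368) and 0.82 (0.0325), and 1419355_at 0.60 (0.518) and 0.61 (0.457). The second *Klf4* probe set gave -0.63 (0.266) in DMSO and -0.48 (0.409) in [BF/S+L/Ep], not called. The 6 further *Klf3* probe sets were not called in either treatment, with 5 of them above the reference on all arrays. In [BF/S+L/Ep] 1429360_at gave 0.52 (95% interval 0.14 to 0.89, adjusted p = 0.162) and 1421604_a_at gave 0.52 (adjusted p = 0.451), both with arrays of 12 h above those of 4 h, and the other 3 gave 0.06 to 0.16. Of all 30 member probe sets, 1 was called higher and 5 lower in DMSO, and 4 were called higher and 6 lower in [BF/S+L/Ep]. Over all probe sets, 1.18% were called higher and 0.921% lower in DMSO, and 1.55% and 1.31% in [BF/S+L/Ep].

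**Figure D4:**
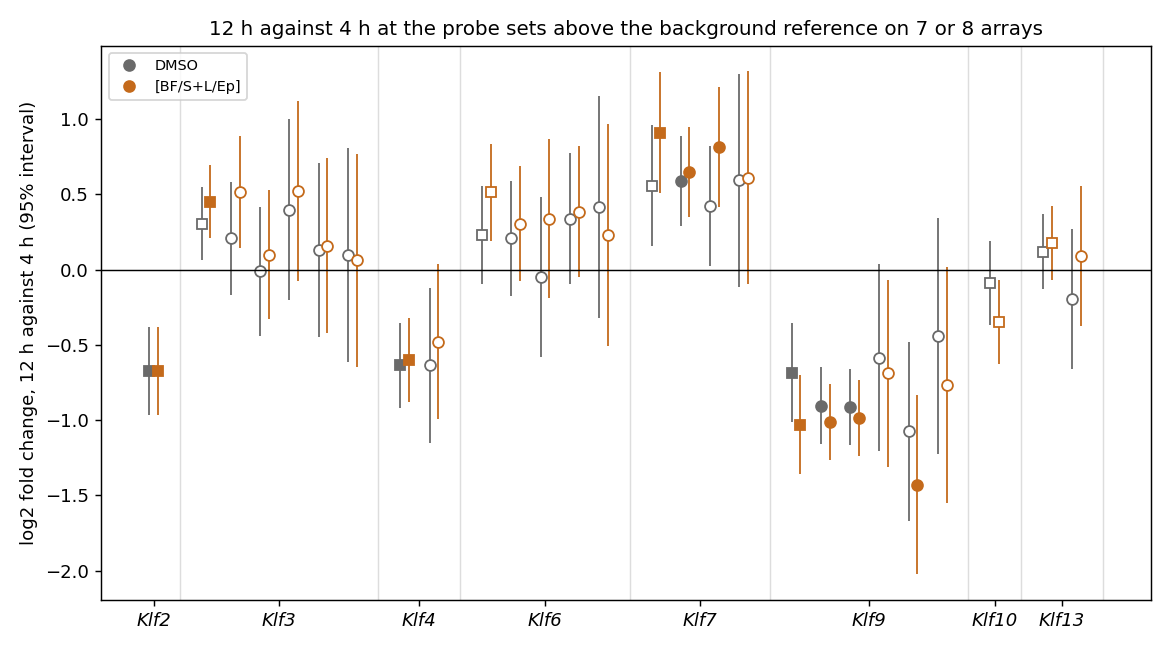
Log2 difference of 12 h minus 4 h for the 27 member probe sets above the background reference on 7 or 8 arrays. Squares are main probe sets, circles the others of the same gene, and filled symbols have an adjusted p under 0.05. The *Klf9* symbols lie below 0 and the *Klf7* symbols above 0 in both treatments, while those of *Klf3* and *Klf6* are spread around or above 0.

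Of the 9 other Krüppel-like factors on the list, 8 had a probe set and 2, *Klf11* and *Klf16*, lay above the reference on all 8 arrays. None was called in any of the 6 comparisons. *Klf16* gave -0.29 (SE 0.12, adjusted p = 0.685) for treatment on average, and *Klf11*, the closest relative of *Klf10*, gave -0.11 (SE 0.15). Of the Sp family, which binds the same GC boxes, 7 of 9 were measured, *Sp1*, *Sp3* and *Sp4* lay above the reference on all arrays, and none was called. *Sp3* differed by 0.34 (SE 0.18, adjusted p = 0.876) for treatment at 12 h.

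The cofactors and ubiquitin ligases that work with Krüppel-like factors were all measured, 13 of 13. 1 of them rose: *Wwp1*, a ligase reported to mark *Klf2* and *Klf5* proteins for degradation, by 0.73 (SE 0.17, adjusted p = 0.0428) from 4 h to 12 h in DMSO. In [BF/S+L/Ep] it gave 0.38 (adjusted p = 0.334). *Ctbp1*, the partner of *Klf3*, gave -0.37 (SE 0.10, adjusted p = 0.0691) with time in [BF/S+L/Ep], and *Hdac2* gave -0.43 (SE 0.15, adjusted p = 0.199) in DMSO. Of the upstream regulators 13 of 14 were measured. *Tgfbr1*, a receptor of TGF-β, fell by 0.78 (SE 0.10, adjusted p = 9.69e-04) in DMSO and by 0.69 (SE 0.10, adjusted p = 0.00187) in [BF/S+L/Ep] with time, and the other 12 were not called in any comparison. Among those 12, *Tgfbr2* gave 0.44 (adjusted p = 0.0576) with time in DMSO, and *Mef2a*, a factor that acts on *Klf2*, 0.33 (SE 0.10, adjusted p = 0.128) in [BF/S+L/Ep].

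Of 17 genes reported as targets of these factors 16 were measured. For treatment 1 was called, *Retnla*, a gene of alternative activation, which fell by 0.88 (SE 0.12, adjusted p = 0.0477) at 12 h. With time *Ccl5* rose by 0.63 (adjusted p = 0.0109) in DMSO and 0.48 (0.0426) in [BF/S+L/Ep], and the LPS co-receptor *Cd14* rose by 0.70 (0.0210) and 0.71 (0.0162). The mannose receptor *Mrc1* fell by 0.59 (adjusted p = 0.00801) in [BF/S+L/Ep]. Of the 6 glucocorticoid-responsive genes, a list set beside *Klf9*, 1 was called: *Tsc22d3*, which encodes the leucine zipper protein GILZ, fell by 0.87 (SE 0.13, adjusted p = 0.00352) in DMSO and by 1.04 (SE 0.13, adjusted p = 7.81e-04) in [BF/S+L/Ep]. The others were not called, with *Fkbp5* at -0.63 (adjusted p = 0.122) and *Sgk1* at 0.32 (adjusted p = 0.162) in [BF/S+L/Ep]. The immediate early genes, among which *Klf2*, *Klf4*, *Klf6* and *Klf10* are at times counted, had 3 of 15 called with time in DMSO and 5 of 15 in [BF/S+L/Ep], all higher, where 1.18% and 1.55% of all probe sets were called higher, and 2.66% and 3.54% of those above the reference on all arrays. *Fos* rose by 0.96 (adjusted p = 0.00387) and 1.02 (0.00194), *Egr2* by 0.75 (0.00511) and 0.94 (7.68e-04), and *Ier3* by 1.0 (8.77e-04) and 0.81 (0.00351). *Egr1* rose by 1.28 (0.00283) and *Dusp1* by 0.64 (0.0282) in [BF/S+L/Ep]. For treatment on average *Ier3* rose by 0.54 (adjusted p = 0.0465). The median time difference in [BF/S+L/Ep] was 0.36 over the immediate early genes, 0.28 over the Sp family, 0.19 over the upstream regulators, 0.01 over the cofactors and ubiquitin ligases, -0.10 over the targets, -0.10 over the glucocorticoid-responsive genes and -0.27 over the other Krüppel-like factors, against 0.02 over all probe sets. Most measured genes of the Sp family and of the other Krüppel-like factors were not above the reference on all arrays.

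**Figure D5:**
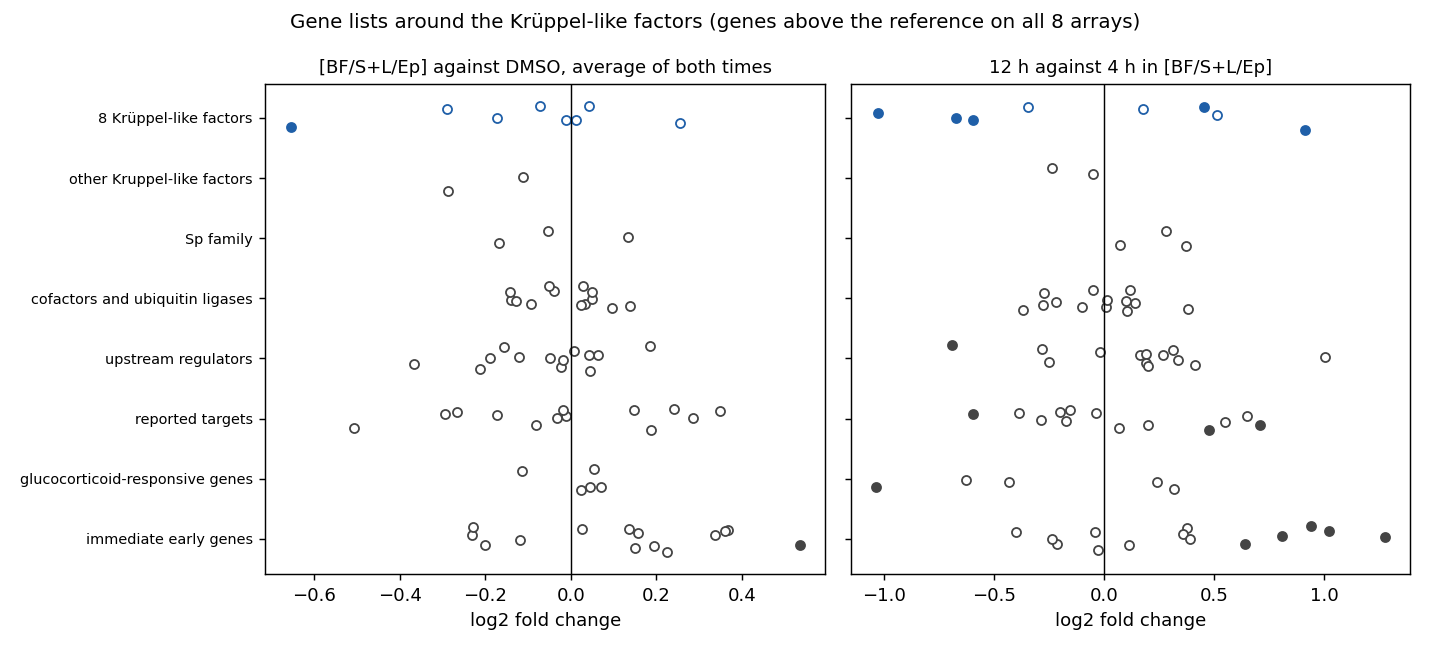
Log2 differences of the members and of 7 gene lists (genes above the background reference on all 8 arrays), for [BF/S+L/Ep] minus DMSO averaged over both times and for 12 h minus 4 h in [BF/S+L/Ep]. Each point is a gene at its brightest probe set, and filled points have an adjusted p under 0.05. *Klf4* and *Ier3* are the filled points for treatment, and *Tsc22d3* lies with *Klf9* near -1 for time.

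The genes whose log2 signals ran most like those of a called member over the 8 arrays were sought among 9437 genes above the reference on all arrays. With so many genes and 4 groups that differ in time, high values of Pearson's r are found for any gene that moves with time, and they are given as a description. For *Klf4* they were *Tubb2a* (r = 0.958), *Atp6v1g1* (0.958), *Alg8* (0.956), *Arrdc3* (0.956) and *Sgsh* (0.953). For *Klf2* they were *Emc10* (0.988), *Ptpa* (0.985), *Mthfd1l* (0.983), *Sptssa* (0.980) and *Ncapg2* (0.979). For *Klf9* they were *Gars* (0.991), *Hr* (0.987), *Fam162a* (0.977), *Chek2* (0.975) and *Aprt* (0.975). For *Klf7*, the leading genes were *Brpf1* (0.980), *Osbpl3* (0.975), *Mbtd1* (0.974), *Mitf* (0.973) and *Cxcl1* (0.963), and for *Klf3* they were *Cd180* (0.985), *Abi1* (0.983), *Senp7* (0.981), *Erbin* (0.979) and *Impact* (0.975). No member of the family was among the leading 5 of another.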

How the data were processed

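RNA of mouse BMDCs, 2 arrays for each treatment and time, was hybridized to Affymetrix Mouse 430 2.0 arrays. The intensity values used are the MAS5 signals that the authors deposited, which are linear values scaled by the authors to a common level on each array. The sources used here name no MAS5 version. Detection calls were not used. Of 45101 probe sets, 64 controls were dropped. The array annotation gave 34945 of 45037 probe sets 1 symbol, 932 several and 9160 none. The 4 group means were fitted to log2 signals over the 8 arrays in limma 3.58.1 (R 4.3.3), moderating the spread along an intensity trend (4 residual and 8.833 prior degrees of freedom). P-values are two-sided, were adjusted over all 45037 probe sets by the Benjamini-Hochberg method, and count as called under 0.05. Fold changes are those of fitted log2 means. The fit was tested on simulated data. Python 3.11.15 with matplotlib 3.10.9 drew the figures. The number of arrays limits the precision.

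Named were all members at their brightest probe set with the other probe sets beside it, from each gene list every called gene and the 3 genes with the smallest p (dim ones are covered by the counts), and for each called member the 5 genes most like it. The members and the gene lists, written from general knowledge, were chosen with earlier results of these data known. Motifs were searched on both strands of RefSeq promoters. Alternatives were the normalization, centring, offset, filter on dim probe sets, moderation, samples in the fit, replicate block, probe set and each array left out.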

Additional observations from a re-analysis of the deposited data

How the results depend on the processing

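With each array centred on its median, 0 members were called for treatment on average, 1 with time in DMSO and 3 with time in [BF/S+L/Ep]. Without the intensity trend 0 were called in each of these 3 comparisons, and with only the 4 arrays of the comparison 2 were called with time in [BF/S+L/Ep]. With 1 array left out, the calls ranged from 0 to 1 for treatment on average, from 0 to 3 with time in DMSO and from 1 to 4 with time in [BF/S+L/Ep], and were 0 for treatment at 4 h and at 12 h. The cause of these losses was not tested. The fits with 1 array left out or with only the 4 arrays of a comparison also held fewer arrays. No member called by the main probe set changed sign outside the probe set alternative, where the weakest probe sets, under the background reference on all arrays, gave -0.23 for *Klf3* with time in [BF/S+L/Ep] and 1.52 and 0.48 for *Klf9* with time in DMSO and in [BF/S+L/Ep]. Among 609 alternative values of the 39 member results that were not called, 38 changed sign, 0 left the 95% interval of the value reported, and 1 was called, *Klf7* with time in DMSO from its 4 arrays alone.

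The arrays carry replicate numbers 1 and 2. The deviations of same-numbered arrays from their group means correlated at -0.0858 to 0.263 over 19021 probe sets, so the numbers were not taken to pair the arrays. With the replicate number as a block, the calls were 0 for treatment at 4 h, 0 at 12 h, 1 on average and 0 for the difference between times, 3 with time in DMSO and 4 with time in [BF/S+L/Ep]. Unadjusted 95% intervals without 0 were found for the treatment differences of *Klf4* at 4 h and at 12 h and of *Klf7* at 12 h. The same held for *Klf10* at 12 h and on average. None of these passed the adjustment over all probe sets, which with 2 arrays a group few probe sets passed.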
